A study of Mus musculus with 2 samples.

Results

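Solitary lost regions are places in the mouse genome where 5-hydroxymethylcytosine (5hmC) was called higher in Tet2+/+ than in Tet2-/- mast cells, where the Tet2-/- library had no 5hmC peak of its own, and where no second such call lay nearby. They were taken from the authors' list of peaks called in the Tet2+/+ library with the Tet2-/- library as control, here named the direct list. A region was kept if it lay on an autosome, overlapped no peak of the list called in the Tet2-/- library alone by 1 bp or more, and had its summit over 10 kb from every other summit of the direct list. The rule gave 1414 regions of the 2724 in the direct list. Of the 2704 autosomal regions in that list, 1702 overlapped no Tet2-/- peak, and the solitary ones made up 52.3% of the 2704. They were divided by whether the list called in the Tet2+/+ library alone, here the own list, had a peak there: 1268 regions overlapped such an own peak and 146 did not.

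5hmC is made from methylated cytosine by the TET enzymes, and TET2 is a TET enzyme of blood cells that is often mutated in blood cancers. The mark is an intermediate on a route to unmethylated DNA, and it is commonly found at enhancers and in gene bodies. Mast cells are tissue-resident immune cells that carry Kit, the receptor for stem cell factor, and FcεRI, the high-affinity receptor for IgE, and they release granules when IgE on their surface meets its antigen.

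The cells were bone marrow-derived mast cells, grown in interleukin-3 from femurs and tibias of C57BL/6 mice of 6 to 12 weeks, with genotype Tet2+/+ or Tet2-/-, and no treatment. Knockout cultures matured less fully per the labels, so cells positive for Kit and FcεRIα were sorted after 4 weeks. 5hmC in 4 µg of sheared genomic DNA was tagged with glucose and biotin, pulled down and sequenced, giving 1 library per genotype. Each genotype was represented by 2 animals, and whether these were pooled for the library is not stated. With 1 library each there is no replicate spread. Differences between genotypes therefore carry no p-value, and every interval covers counting error only. The lists hold no expression values, so the sorted cells could not be checked against marker genes. Whether a library difference stems from the genotype or from the library cannot be told apart.

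Each deposited peak carries a fold, a −log10 p and a −log10 q from the authors' peak caller. Together these gave the number of Tet2+/+ fragments over each summit and the number the caller expected there. The genome background was 1.46 expected fragments in Tet2+/+ and 1.72 in Tet2-/-, so the knockout library was 1.18 times as deep. Positions are those of the mm9 build, and no gene annotation or sequence of that build was used here, so regions are named by position alone.

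At the solitary lost regions the Tet2+/+ library had a median of 17 fragments over the summit (interquartile range 14 to 21, lowest 9, highest 40). The expectation taken from the Tet2-/- library was a median of 2.88 fragments (interquartile range 2.04 to 4.24), and the deposited fold was a median of 4.45 (3.82 to 5.08). The regions were chosen by these values, through the caller's direct comparison, and by the absence of a Tet2-/- call, so they describe the set and test nothing. The regions were narrow, with a median width of 244 bp and a largest width of 594 bp. Most calls were of moderate strength. A −log10 q of at least 5 was reached by 426 of the 1414 regions (30.1%, 95% exact interval 27.7 to 32.6), and of at least 10 by 32 regions. For 143 regions (10.1%) the −log10 q was under 2.

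Loss of a called peak did not mean that no Tet2-/- fragments were near. The caller's expectation is the highest of the genome background and several local windows of the control library. It lay above the genome background at 1328 of the 1414 regions (93.9%, 95% exact interval 92.5 to 95.1). At 812 regions (57.4%) it equalled a whole number of depth-scaled Tet2-/- fragments, which ran from 2 to 13. Of these 812, 604 had an expectation equal to 2 to 5 scaled Tet2-/- fragments and 30 had one equal to 9 to 13. For comparison, the Tet2-/- own list called peaks from as few as 8 fragments over a summit, and 6.54% of its 16875 peaks had under 12. Which window set each expectation was not determined, and an average over a wider window can also equal a whole number. The number in the expectation thus need not be coverage at the summit, so these counts are set side by side and not compared.

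The 86 regions whose expectation stayed at the genome background are those where the control library gave the caller nothing above its average. They had a median of 12 Tet2+/+ fragments (interquartile range 11 to 13) and a median fold of 5.29. Regions with an expectation equal to 3 scaled Tet2-/- fragments had a median of 15 Tet2+/+ fragments. Those at 5 had 19, and those at 8 had 25. The median fold over the same steps went from 4.51 to 3.82 and 3.34. A region with more Tet2-/- signal thus entered the list only with more Tet2+/+ fragments, as a limit on p requires.

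**Figure D1:**
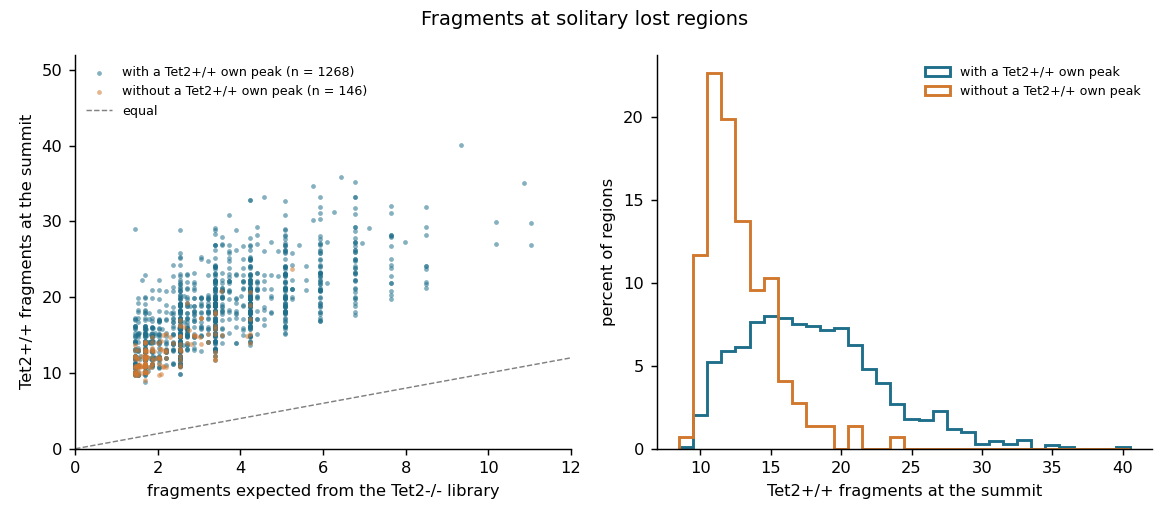
Each point in the left panel is 1 solitary lost region, with the fragments the caller expected from the Tet2-/- library on the horizontal axis and the Tet2+/+ fragments at the summit on the vertical axis (moved by up to 0.3 to separate points); the dashed line marks equal values. The right panel gives the percent of regions at each fragment number for the 1268 regions with a Tet2+/+ own peak and the 146 without; the latter have a median of 12 fragments against 17.

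The own list held a Tet2+/+ peak at 1268 of the 1414 regions (89.7%, 95% exact interval 88.0 to 91.2). Each lay in a different own peak. Across the autosomes, 13.9% of the 17882 Tet2+/+ own peaks overlapped a region of the direct list, and among the 6970 own peaks without a Tet2-/- peak the share was 21.2%. Both shares come from the contrast that the rule used, so nothing is read from them. The fragment count at the member's summit equalled that of its own peak in 1258 of the 1268 cases, and the summits lay a median of 1 bp apart. The width of the direct call was a median of 80.5% of that of the own peak, and at some regions it was the larger. Both lists were called from the same Tet2+/+ fragments, so this match is a description. The call mostly concerned the same summit, and how much of the own peak it overlapped was not measured. There were few exceptions: 19 regions had their summit over 100 bp from that of the own peak, by up to 534 bp. In 16 cases the own peak that held the region reached a Tet2-/- peak elsewhere along its width.

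The own peaks at these regions were ordinary in size. Their median was 17 fragments and 335 bp, and all autosomal Tet2+/+ own peaks had medians of 17 fragments and 328 bp. Their median own fold was 5.67 against 5.48. By own −log10 q, 22.2% of them fell in the strongest quartile of Tet2+/+ own peaks and 19.9% in the weakest. The 5495 Tet2+/+ own peaks that lacked a Tet2-/- peak but were not called in the direct list were smaller, with a median of 14 fragments, a width of 252 bp and a fold of 4.88. Among own peaks without a Tet2-/- peak, the share that held a solitary lost region depended on fragments. It was 8.24% (95% exact interval 7.07 to 9.53) at 8 to 12 fragments, 12.6% at 13 to 16, 29.1% at 17 to 20 and 49.5% (45.5 to 53.5) at 21 to 28. At 29 or more it was 42.7% (38 of 89 peaks, 32.3 to 53.6), whose interval includes the value of the class below. A direct call needs fragments to reach its p, so these shares do not show that stronger sites differed more.

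The strongest solitary lost region lay on chromosome 10, 117005479 to 117005910. The Tet2+/+ library had 29 fragments there (95% exact Poisson interval 19.4 to 41.6), and the expectation was 1.46, the genome background, for a deposited fold of 12.2. It also stood alone in both own lists: its nearest other Tet2+/+ summit was 135 kb away and the nearest Tet2-/- summit 140 kb away. This is the region of the set where the 2 libraries were farthest apart by fold and by q.

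On chromosome 14, 87514118 to 87514497, the Tet2+/+ library had 33 fragments (22.7 to 46.3) over an expectation of 4.24, which equals 5 Tet2-/- fragments scaled for depth. No other peak of either library lay within 50 kb, and the nearest other region of the direct list was 7995 kb away. On chromosome 19, 23342979 to 23343515, 29 fragments stood over an expectation of 2.54, equal to 3 scaled Tet2-/- fragments. Here a second Tet2+/+ peak, which was not called in the direct list, had its summit 952 bp away, and the nearest Tet2-/- summit was 23.5 kb away.

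Other leading regions lay beside 5hmC that both libraries had. On chromosome 7, 89565750 to 89566018, 29 Tet2+/+ fragments stood over an expectation of 3.39 (equal to 4 scaled Tet2-/- fragments). Another Tet2+/+ summit lay at 1.01 kb and a Tet2-/- summit at 1.03 kb. On chromosome 11, 80721676 to 80722215, 22 fragments stood over 1.61, with summits of both libraries at 1.08 and 1.18 kb. In both cases a called Tet2-/- summit lay just over 1 kb from a region where that library had no call.

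The remaining 5 of the 10 strongest regions with an own peak were spread over 5 chromosomes. Chromosome 1, 59957200 to 59957590, had 23 fragments over an expectation of 1.70. Chromosome 16, 10747993 to 10748311, had 33 over 4.24, in a neighbourhood with 9 other Tet2+/+ and 7 Tet2-/- own peaks within 50 kb. Chromosome 17, 30002894 to 30003167, had 31 over 3.73. Chromosome 7, 151630018 to 151630253, had 26 over 2.54, and chromosome 4, 120292151 to 120292608, had 29 over 3.39. In all 10 regions the lower bound of the Poisson interval lay above the expectation, as the choice of strong calls implies. Only 2 of the 10, on chromosomes 10 and 14, had no Tet2-/- peak within 50 kb.

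**Figure D2:**
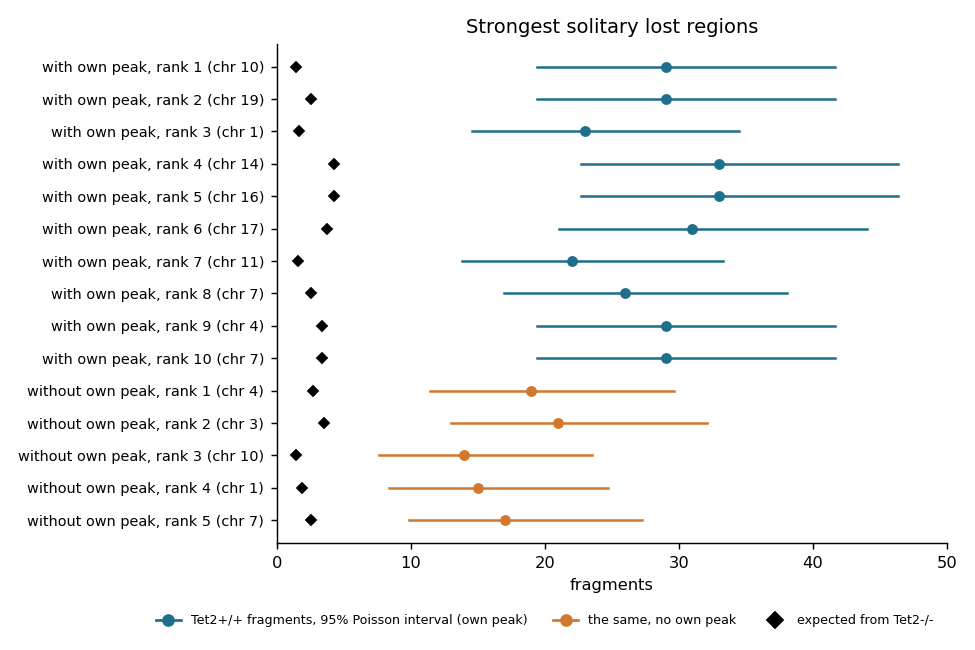
Fragments (horizontal axis) at the 10 strongest solitary lost regions with a Tet2+/+ own peak and the 5 strongest without, ordered by −log10 q; circles are Tet2+/+ fragments with 95% exact Poisson intervals and diamonds the number expected from the Tet2-/- library. The expectation lies between 1.46 and 4.24 in the upper 10, against 22 to 33 Tet2+/+ fragments.

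Peak width and isolation gave further examples. The widest region, on chromosome 5, 106266516 to 106267109, spanned 594 bp with 22 fragments over an expectation of 2.54. The second, on chromosome 1, 168387955 to 168388530, spanned 576 bp with 35 fragments over 5.77. The most isolated region lay on chromosome 7, 78448123 to 78448393, with 23 fragments over 3.39 (equal to 4 scaled Tet2-/- fragments) and no other Tet2+/+ summit within 1851 kb. The second lay on chromosome 4, 73988821 to 73989094, with 12 fragments over 1.87 and none within 1624 kb. Isolation and strength did not go together in this pair: the first had a −log10 q of 7.53 and the second of 3.09.

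The regions on either side of the limits of the rule were as follows. Just inside the distance limit was chromosome 13, 34879472 to 34879729, with 23 fragments, a fold of 4.44 and the next direct summit at 10.09 kb. A second, on chromosome 18, 50224587 to 50224912, had 16 fragments and the next direct summit at 10.18 kb. Just outside was a pair on chromosome 5 at 75266599 to 75266905 and 75276594 to 75277047, with 12 and 30 fragments. Just inside the overlap limit, the region on chromosome 16, 12663472 to 12663684, ended 12 bp from a Tet2-/- peak (19 fragments, fold 3.94). The region on chromosome 4, 57746286 to 57746489, ended 19 bp from one (27 fragments, fold 3.12). Just outside, the region on chromosome 19, 24130458 to 24130717, overlapped a Tet2-/- peak by 6 bp (16 fragments, fold 3.24). The region on chromosome 13, 46875594 to 46875832, did so by 11 bp (21 fragments, fold 3.17). The Tet2-/- peaks at these last 2 regions had 15 fragments each. Of these 4 regions at the overlap limit, all but the one on chromosome 16 had a fold below the lower quartile of the set, 3.82.

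The 146 regions with no Tet2+/+ own peak were called only when the libraries were set against each other. They had a median of 12 Tet2+/+ fragments (interquartile range 11 to 14), against 17 in the 1268 with an own peak, and a median expectation of 1.87 against 3.22. Their median fold, 4.45, was that of the others to 2 decimals. At most 14 fragments were found at 114 of the 146 (78.1%) and at 343 of the 1268 (27.1%). None reached a −log10 q of 10 (0 of 146, which allows up to 2.05%), and 5 reached 5. The strongest lay on chromosome 4, 128674106 to 128674325, with 19 fragments (95% exact Poisson interval 11.4 to 29.7) over an expectation of 2.71 and a fold of 5.39. A Tet2+/+ own summit stood 668 bp away. Next came chromosome 3, 157383740 to 157384042, with 21 fragments over 3.53 and own summits of both libraries at 1.22 and 1.32 kb. Chromosome 10, 122001623 to 122001822, had 14 fragments over the background of 1.46. Chromosome 1, 168371459 to 168371681, had 15 over 1.87, and chromosome 7, 95592053 to 95592254, had 17 over 2.54.

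These 146 regions lay closer to other 5hmC peaks. The nearest other Tet2+/+ own summit was a median of 7.25 kb away, against 16.2 kb for regions with an own peak. Within 5 kb there was such a summit for 62 of the 146 (42.5%, 95% exact interval 34.3 to 50.9) and for 233 of the 1268 (18.4%, 16.3 to 20.6). From 5 to 10 kb the shares were 15.8% (10.3 to 22.7) and 17.9% (15.8 to 20.1), so the gap was in the first 5 kb. Among regions of at most 14 fragments in both groups, a comparison chosen after seeing the data, the medians were 8.63 kb and 23.8 kb. The share of regions without an own peak was 1.93% (5 of 259, 0.630 to 4.45) where no other Tet2+/+ own peak lay within 50 kb. It was 9.55% with 1 to 2 such peaks, 12.4% with 3 to 5, and 22.5% (32 of 142, 15.95 to 30.3) with 6 or more. In the own lists, 100% of the expectations above background were multiples of 0.02 within 0.001. A single 200 bp fragment averaged over 10 kb gives that step, and the surrounding 10 kb of the same library thus appears to have set them. Own peaks with 12 Tet2+/+ fragments had expectations from 1.46 to 3. The part of that local background in the missing own calls was not tested.

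**Figure D3:**
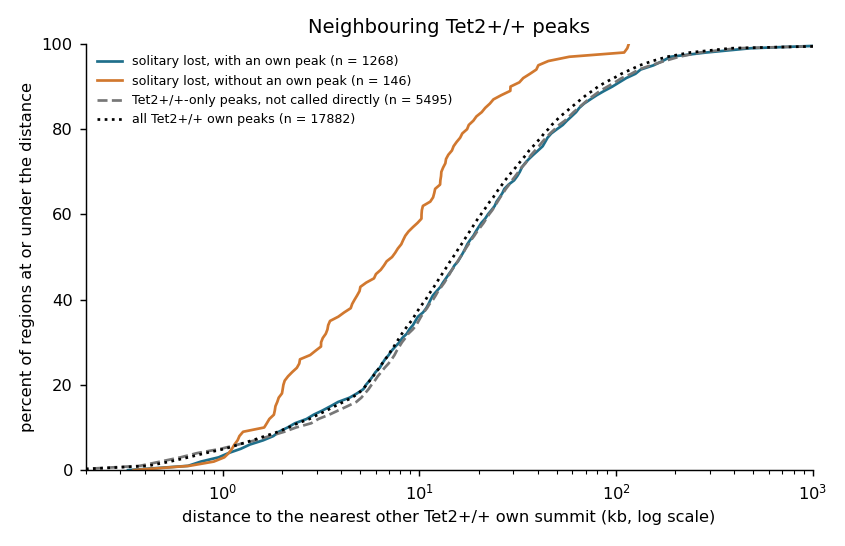
Percent of regions (vertical axis) whose nearest other Tet2+/+ own summit lies at or under a distance in kb (horizontal axis, log scale), for both groups of solitary lost regions, for Tet2+/+ own peaks without a Tet2-/- peak that were not called directly, and for all autosomal Tet2+/+ own peaks. At 5 kb the curve of regions without an own peak stands at 42.5% against 18.4% for those with one. Within 1 kb it is not above the others. Its median is 7.25 kb, and the other 3 lie close together (medians 16.2, 16.1 and 14.8 kb). Of the classes shown, only the solitary lost regions were barred from having another direct call within 10 kb.

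Solitary in the direct list did not mean solitary among 5hmC peaks. Another Tet2+/+ own summit lay within 10 kb of 545 of the 1414 regions (38.5%, 95% exact interval 36.0 to 41.1), and a Tet2-/- summit within 10 kb of 559 (39.5%, 37.0 to 42.1). The distance to the nearest other Tet2+/+ summit was a median of 14.7 kb, and for all autosomal Tet2+/+ own peaks it was 14.8 kb. The share with another Tet2+/+ summit within 10 kb was 38.0% (37.3 to 38.7) for all of these peaks, inside the interval of the solitary lost regions. For the solitary regions only, the rule barred other direct calls within 10 kb, and with them own peaks that held such a call. All 697 other Tet2+/+ own peaks within 10 kb of the set lay outside the direct list. Around Tet2+/+ own peaks with neither a Tet2-/- peak nor a direct call, 1974 of 2333 did. The distance and share of the set are thus not like for like with those of all own peaks. The 288 regions that lacked a Tet2-/- peak but had another direct call within 10 kb lay a median of 3.49 kb from another Tet2+/+ summit, which the grouping itself requires to be short. The 856 solitary regions that did keep a Tet2-/- peak had a median of 15.6 kb, and 32.8% (29.7 to 36.1) had another Tet2+/+ summit within 10 kb.

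Regions in empty surroundings were a minority. No Tet2-/- peak lay within 50 kb of 304 regions (21.5%, 95% exact interval 19.4 to 23.7). For Tet2+/+-only own peaks that were not called directly the share was 21.4% (20.4 to 22.5). Neither library had another peak within 50 kb of 193 regions (13.6%, 11.9 to 15.5), against 13.6% (12.7 to 14.6) of the uncalled Tet2+/+-only peaks. The counts of own peaks around a region were also close, with means of 2.50 Tet2+/+ and 2.26 Tet2-/- peaks within 50 kb of a solitary lost region and 2.34 and 2.19 around an uncalled Tet2+/+-only peak. Within 10 kb the solitary lost regions had neighbours somewhat more often, but not within 1 kb. A Tet2-/- summit lay within 10 kb of 39.5% of them (37.0 to 42.1) and of 35.6% (34.3 to 36.9) of the uncalled Tet2+/+-only peaks. For another Tet2+/+ summit the shares were 38.5% (36.0 to 41.1) and 35.3% (34.1 to 36.6). Within 1 kb the shares were 4.95% (3.88 to 6.21) and 6.06% (5.44 to 6.72) for a Tet2-/- summit. They were 3.61% (2.70 to 4.72) and 5.11% (4.55 to 5.73) for another Tet2+/+ summit. The solitary lost regions include the 146 without an own peak. In the 1268 with one the shares within 10 kb were 37.5% (34.8 to 40.2) for a Tet2-/- summit and 36.3% (33.6 to 39.0) for a Tet2+/+ summit. Both intervals overlap those of the uncalled peaks. The rule barred neighbouring direct calls within 10 kb for solitary lost regions and not for uncalled peaks. The shares and counts of these classes are therefore not like for like. Regions with 6 or more other Tet2+/+ peaks within 50 kb had a median of 18 fragments and a median fold of 4.30. Regions with none had medians of 16 fragments and 4.55.

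The 5hmC peaks outside the direct list that lay beside the solitary lost regions were mostly kept. Within 10 kb there were 697 other Tet2+/+ own peaks, and 453 (65.0%, 95% exact interval 61.3 to 68.5) overlapped a Tet2-/- peak. None of the 697 was in the direct list, because the rule barred other direct summits at that distance. Among all autosomal Tet2+/+ own peaks outside the direct list the share was 64.3% (63.5 to 65.1), and among those within 10 kb of an uncalled Tet2+/+-only peak it was 65.3% (63.2 to 67.4). The neighbours of a lost region thus overlapped a knockout peak about as often as other peaks outside the direct list.

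The size of the kept peaks was then compared between the libraries. Pairs of overlapping Tet2+/+ and Tet2-/- own peaks with summits within 100 bp were used, after leaving out peaks in either direct list, and Tet2-/- fragments were scaled to the Tet2+/+ depth. Over all 7356 autosomal pairs the median log2 ratio of Tet2+/+ to Tet2-/- fragments was 0.15 (interquartile range -0.13 to 0.43). Within 10 kb of a solitary lost region it was 0.19 over 319 pairs (-0.10 to 0.46). Tet2+/+ was the higher library in 217 of these (68.0%, 95% exact interval 62.6 to 73.1), and in 63.9% (62.7 to 65.1) of the 6166 pairs over 50 kb away. These intervals overlap. By distance the median was 0.24 within 2 kb (70 pairs), 0.24 from 2 to 5 kb (82 pairs), 0.16 from 5 to 10 kb (167 pairs), 0.16 from 10 to 50 kb and 0.14 beyond. Around uncalled Tet2+/+-only peaks it was 0.15, 0.10 and 0.13 in the 3 nearest classes. The 95% interval of the median, from its order statistics, was 0.09 to 0.38 within 2 kb, 0.12 to 0.33 from 2 to 5 kb and 0.14 to 0.16 beyond 50 kb. Over all pairs within 10 kb it was 0.13 to 0.24. The intervals of the near classes thus include the median of the distant pairs, and with this few pairs they also include larger differences. Pairs close to each other are not independent.

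**Figure D4:**
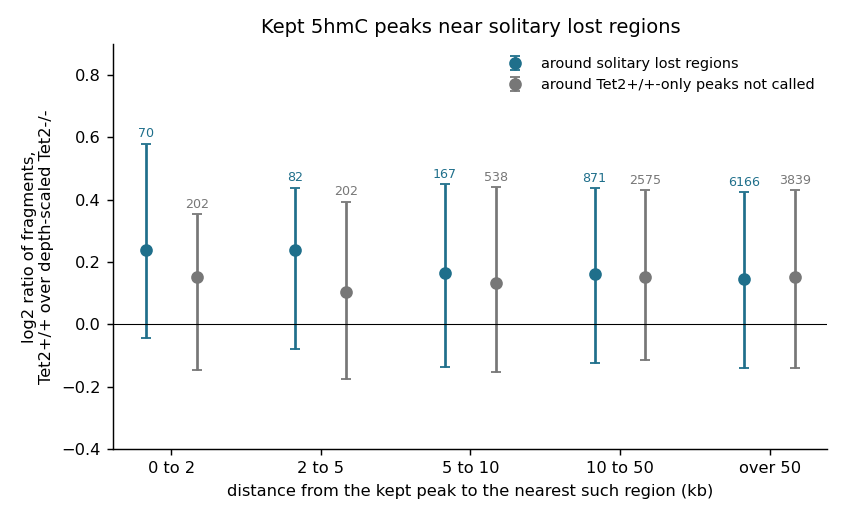
Log2 ratio of Tet2+/+ to depth-scaled Tet2-/- fragments (vertical axis) at peaks found in both libraries and in neither direct list, by distance in kb to the nearest solitary lost region or to the nearest uncalled Tet2+/+-only peak (horizontal axis). Points are medians, bars the interquartile range of single pairs (not the error of the median) and numbers the pairs; the medians lie between 0.10 and 0.24.

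Sites of the opposite change lay close to few of the regions. A region called higher in Tet2-/- had its summit within 10 kb of 24 of the 1414 solitary lost regions (1.70%, 95% exact interval 1.09 to 2.52). The share was 1.64% (0.897 to 2.73) for solitary regions that kept a Tet2-/- peak and 1.75% (1.42 to 2.13) for uncalled Tet2+/+-only peaks. It was 0.694% (0.0842 to 2.49) for lost regions with another direct call within 10 kb, and 2.70% (2.47 to 2.95) over all autosomal Tet2+/+ own peaks, which include peaks that themselves overlap a region called higher in Tet2-/-. Within 1 kb there was 1 such case in the set. The median distance from a solitary lost region to the nearest region called higher in Tet2-/- was 1263 kb. It was about the same for all autosomal Tet2+/+ own peaks (1265 kb) and for uncalled Tet2+/+-only peaks (1269 kb).

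Solitary lost regions were found on every autosome, from 42 on chromosome 18 to 111 on chromosome 10. As a share of Tet2+/+ own peaks, those with an own peak made up 7.09% (95% exact interval 6.72 to 7.48) on the 19 autosomes together. Chromosome 10 had the highest share, 9.86% (100 of 1014 peaks, 8.10 to 11.9), and chromosome 18 the lowest, 5.49% (31 of 565, 3.76 to 7.70). The interval of chromosome 10 lies above the autosomal value, and it is the only one of the 19 to exclude it. With 19 intervals examined and no test, this is a description. For solitary regions that kept a Tet2-/- peak the share on chromosome 10 was 4.93% (3.68 to 6.45), which includes the 4.79% of all autosomes. On chromosome 10 the regions were not gathered in 1 place, since each of its 13 windows of 10 Mb held between 3 and 14.

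Regions without an own peak made up 10.3% of the set (8.79 to 12.0). Chromosome 18 had 11 among its 42 (26.2%, 13.9 to 42.0), and chromosome 12 had none among its 48, which allows a share of up to 6.25%. Across the autosomes 241 of 256 windows of 10 Mb with an own peak or a member held at least 1 solitary lost region, with a median of 5. The fullest window, on chromosome 16 from 90 to 100 Mb, held 22 beside 156 Tet2+/+ own peaks. Neighbouring members were a median of 640 kb apart (interquartile range 203 to 1975 kb), with a longest gap of 18.7 Mb. The set was thus spread over the autosomes and followed no single locus.

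**Figure D5:**
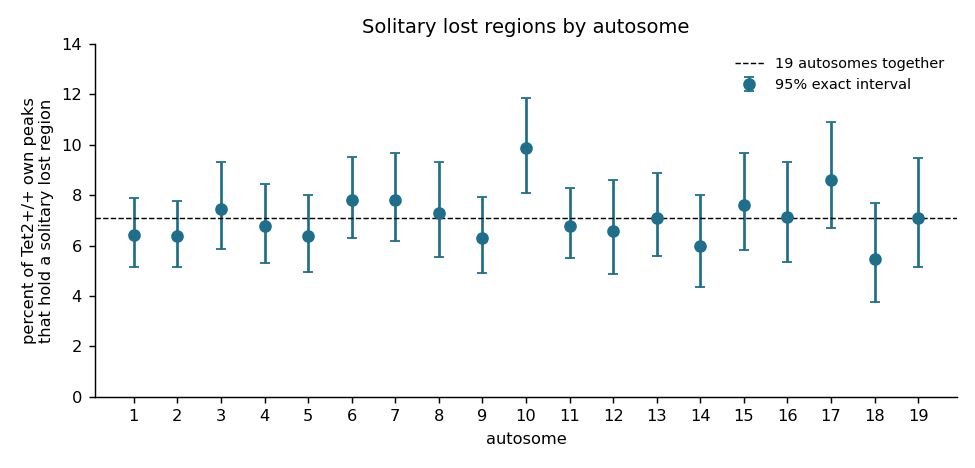
Percent of Tet2+/+ own peaks that hold a solitary lost region (vertical axis) for each autosome (horizontal axis), with 95% exact intervals; the dashed line is the value of the 19 autosomes together, 7.09%. Chromosome 10, at 9.86%, is the only autosome whose interval excludes that value.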

How the data were processed

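Peaks were called per library, each alone and with the other as control, as the peak names state. Bowtie2, an aligner, MACS2, a peak caller, and the mm9 build are named per the submitters' processing notes; for versions and thresholds, the sources used here give nothing. The deposited values of a peak are a fold ratio, −log10 p and −log10 q, and a score that follows −log10 p. Fragments and expectation were solved from the fold (pileup over expectation, each plus 1) and the Poisson tail. The solution differed from the −log10 p in the file by under 0.001 at 100% of peaks in both own lists and the Tet2+/+ direct list. Tet2-/- fragments were scaled by 0.848 for depth. An expectation within 0.01 of a whole number was called whole. Calculations used Python 3.11.15, numpy 2.4.6, pandas 2.3.3, scipy 1.17.1 and matplotlib 3.10.9; overlaps were checked with bedtools 2.31.1, and the rule on simulated peaks. Shares have 95% exact Clopper-Pearson intervals, and a limit of 3 counts stands for a count of 0. Peaks close together, or fragments copied by PCR, are not independent. The regions and lists were chosen with earlier results of these data known. Named regions are the 10 of highest −log10 q with and the 5 without an own peak, the 2 widest, the 2 most isolated and 2 on each side of each limit, ties by fold. Gene position, gene lists, CpG content and motifs need an mm9 genome and were not analysed here. Alternatives were stricter q, other overlap rules and other distances.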

Additional observations from a re-analysis of the deposited data

How the results depend on the processing

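Of 36 values recomputed for 10 results, 22 kept to the 95% interval of the reported value (counts: to 1.5 times) and 14 left it. Reversal of a direction was not checked. At −log10 q of at least 5 the set had 472 regions, of which 98.1% had a Tet2+/+ own peak, with a median of 21 fragments and a fold of 5.36. The nearest other Tet2+/+ summit was then 12.8 kb away, the share of autosomal own peaks was 2.59% and that on chromosome 10 was 4.14%. Fewer and stronger regions follow from the stricter limit itself. The limit was set on the direct list before the distance rule, so regions with only weaker neighbours entered the set. Of the 1414 regions of the main set, 426 reached this limit. At −log10 q of at least 2 the median fold was 4.54. Reciprocal overlap of 50% as the rule for a Tet2-/- peak gave 18 fragments and a fold of 4.28, and the same rule for the Tet2+/+ peak gave 84.2%. No other direct summit within 50 kb gave 91.7% with an own peak, in a set of 1006. With other own peaks at −log10 q of at least 5, the nearest was 20.3 kb away. Among members of at most 14 fragments, those with an own peak lay 23.8 kb from the next. The cause of these shifts was not tested. Settings for gene position, CpG content and motifs were not run. No paired analysis was possible because a single library stands for each genotype. Single regions are limited by depth, with a median of 17 fragments.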
